A study of Homo sapiens with 13 samples.

Results

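RNA was sequenced from cultures of hES-N1, a stable line made from H9, a widely used human embryonic stem cell line, in which doxycycline switches on human NEUROG2. The comparison described here sets 1 library from a culture grown for 11 days with doxycycline (day 11 dox) against 1 library from a culture grown for 11 days without it (day 11 control). These are 2 of the 13 libraries of the series, chosen by their labels and not by any measured value. Both cultures were single wells of the same NEUROG2-inducible cells on matrigel, kept for 2 days in E8, a stem cell medium, and for 9 days in 3N, a medium for neural cells. Doxycycline was present at 1 µg/ml for all 11 days in the dox culture, and neither culture had the added FGF2 that other libraries of the series had. The labels do not state the vector, the promoter behind NEUROG2 or the number of clones in the line. An untreated day 0 library and the day 5 dox and day 5 control libraries of the same line, 1 each, serve as points of reference. All 5 cultures carried the inducible gene, so doxycycline itself and the NEUROG2 it induces cannot be told apart. Of 60500 genes in the count table, 34964 had a count in at least 1 day-11 library, and 12655 reached 10 CPM, counts scaled to a library of 1000000 reads, in at least 1 of them and were compared.

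NEUROG2 is a basic helix-loop-helix transcription factor that commits neural progenitors to become neurons. It binds E-boxes, turns on further neuronal transcription factors and helps to end cell division. In human stem cells its forced expression is widely used to make excitatory neurons directly, while 3N is a medium made for turning stem cells into cells of the developing cortex.

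The dox library held 35001512 counted reads and the control library 28443657. With 1 library a side there is no replicate and no test was run. Each value below is the level in 1 culture, and intervals cover counting error only. The FGF2 part of the series was sequenced in another run, from cultures labelled hES-N2G1 and hES-N2G2. There, 2 libraries of the same group differed by at least 4-fold in 0 to 2 of 10204 to 10347 genes. In those pairs 95% of genes lay within a log2 difference of 0.225 to 0.461, depending on the group. All of those cultures had received doxycycline, so they do not give the spread between uninduced cultures. Genes for ribosomal proteins took 1.36% of the reads in the dox library and 4.30% in the control, and the part of that difference in the ratios below was not tested. Mitochondrial messages took 3.66% in the dox library and 3.33% in the control. In bulk RNA, fewer cells of a type and less RNA per cell cannot be told apart.

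At a threshold of 4-fold, after adding 1 CPM to both levels, 1457 genes were higher with doxycycline (11.5% of the 12655) and 1247 were lower (9.85%), so that 21.4% differed in all. The median log2 ratio of all genes was 0.159 with the TMM scaling used here. Scaled by library totals it was -0.175, and the split became 1203 higher and 1625 lower, so the share of higher genes among those past 4-fold was 53.9% with TMM and 42.5% with totals. Differences of that size depend on the scaling, and so do calls close to 4-fold, as the change in these counts shows. Among genes named below, HES4 and ENO2, at log2 ratios of 2.03 and 2.14, stand close to that threshold. The plot of dox against control levels shows a broad band of shared genes with a wing of genes on each side.

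**Figure D1:**
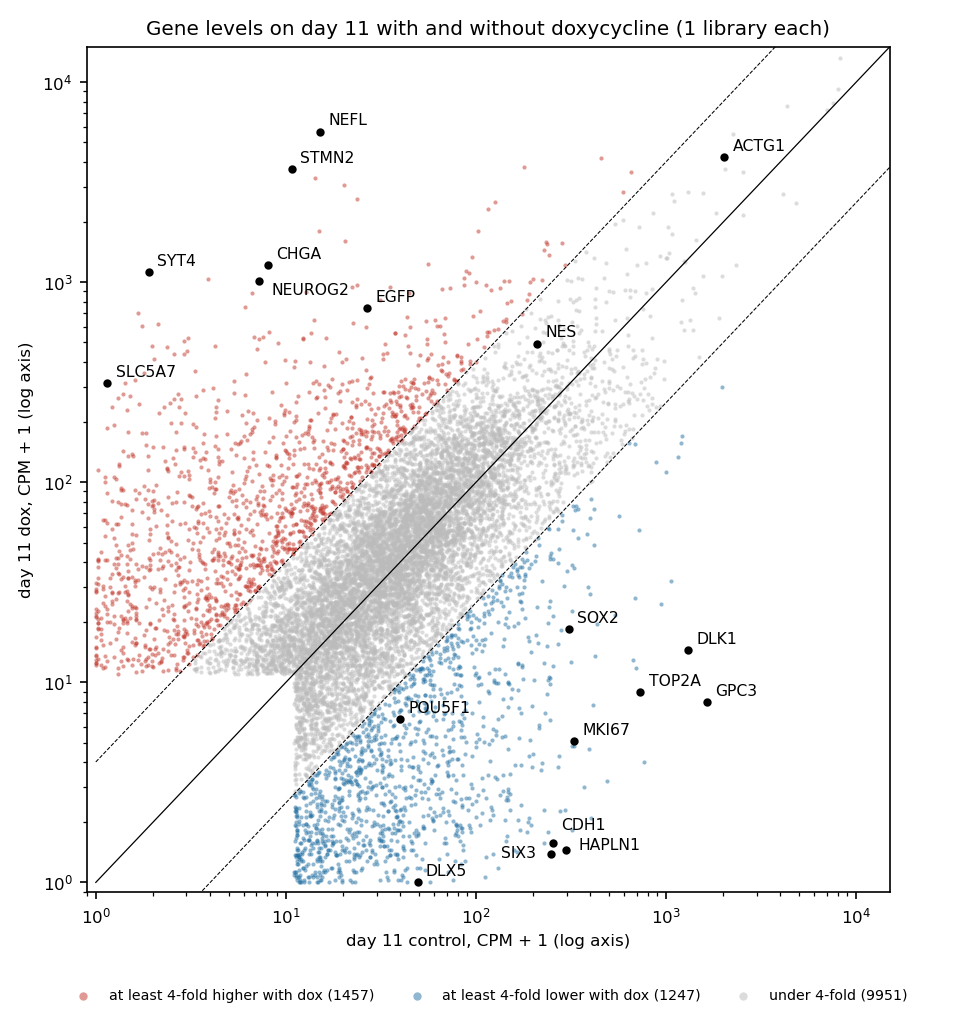
Levels of the 12655 genes compared, with the day 11 dox library on the vertical axis and the day 11 control library on the horizontal axis, both as CPM + 1 on log axes. Dashed lines mark 4-fold. Red points (1457) are higher and blue points (1247) lower with doxycycline; neuronal genes such as NEFL and SYT4 sit at the upper left, and cell cycle, progenitor and adhesion genes such as MKI67, SIX3 and CDH1 at the lower right.

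The induced gene and the first markers separated the cultures in the labelled direction. NEUROG2 (chr4:112513516-112516172, minus strand, GRCh38) was at 1018 CPM in the dox library, against 6.26 CPM in the control, a difference of 162-fold (95% counting interval 142 to 187). The reads of the cells' own gene and of the inducible copy were not split. EGFP, a reporter counted as its own row, was at 742 CPM in the dox library, against 25.8 CPM in the control, and mCherry had 0 counts in both libraries, where the limit set by 3 counts is 0.0909 CPM in the dox library and 0.0903 CPM in the control. NEFL (chr8:24950955-24957110, minus strand), the light neurofilament chain of axons, was at 5655 CPM in the dox library, against 14.1 CPM in the control, 401-fold (95% counting interval 366 to 440.2) higher with doxycycline. SOX2 (chr3:181711924-181714436, plus strand), a factor of stem cells and neural progenitors, was at 17.5 CPM in the dox library, against 306 CPM in the control, lower by 17.6-fold (95% counting interval 16.1 to 19.1). MKI67 (chr10:128096659-128126385, minus strand), a protein of dividing nuclei, was at 4.09 CPM in the dox library, against 326 CPM in the control, lower by 79.7-fold (95% counting interval 67.3 to 95.2).

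The dox library carried the markers of neurons, and the control carried some but not all of those of neural progenitors. Each of the neuronal markers NEFL, STMN2, DCX, TUBB3, MAP2, SYN1 and SNAP25 was at least 4-fold higher in the dox library. The tubulin TUBB3, often used to stain neurons, was at 85.5 CPM in the dox library, against 2.11 CPM in the control, but 35.8% of its exon bases also belong to another annotated gene, and how reads shared between genes were counted is not given in the sources used here. In the control, the progenitor markers SOX2, PAX6 (101 CPM), SIX3 (246 CPM) and LHX2 (56.8 CPM) were present, and PAX6, SIX3 and LHX2 were at 1.32, 0.0253 and 0.0253 CPM on day 0. NES was at 493 CPM with doxycycline and 209 CPM without and so did not mark the control. SOX1 and HES5, also early markers of neural progenitors, were at 0.964 and 3.49 CPM in the control, which goes against the name neural progenitor for that library as a whole. The stem cell factors NANOG and TDGF1 were at 0.181 and 6.41 CPM there, against 37.3 and 495 CPM on day 0. The stem cell genes DPPA4 and POU5F1 stood above both in the control, with levels given below. Not all stem cell markers were thus lost from the control. Some defining markers of other cell types were at or near 0 in both libraries. SOX10 for neural crest and Schwann cells, MYOD1 for muscle, PTPRC for blood and TBXT and SOX17 for mesendoderm had 0 counts in each. TYR, for pigment cells, was at 0.0909 CPM with doxycycline and 0 without. GFAP, for astroglia, was at 0.0303 CPM with doxycycline and 0.271 CPM without. Other such markers were not near 0 in both libraries. TFAP2A, also a neural crest marker, was at least 4-fold higher in the control, with its levels given below. MBP, a marker of oligodendroglia, was at least 4-fold higher in the dox library, with its levels also given below. PMEL, a pigment cell gene, was at 243 CPM in the dox library and 128 CPM in the control, with 135 CPM on day 0.

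**Figure D2:**
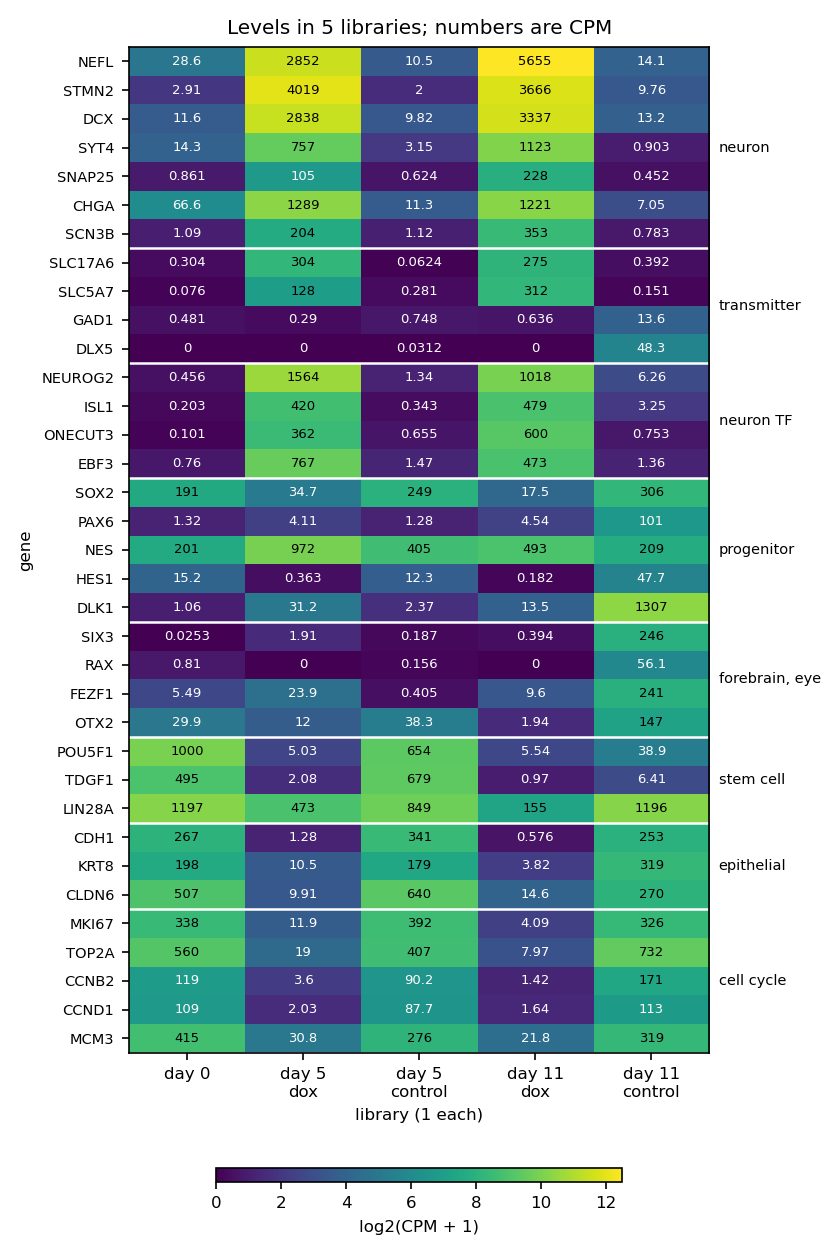
Levels of genes grouped by role in the 5 libraries of the hES-N1 line (1 each), coloured by log2(CPM + 1) with the CPM printed in each cell. The neuronal rows are high in both dox libraries, and SIX3, at 246 CPM in the day 11 control, is at 0.394 CPM in the day 11 dox library.

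Genes of the neuronal cytoskeleton were higher with doxycycline throughout. All 26 members of that list were at least 4-fold higher with doxycycline, with log2 ratios of 2.26 to 8.73 and a median of 4.46, beside a median of 0.159 and 11.5% higher among all genes. Their summed level was 50069 CPM in the dox library and 2931 CPM in the control. STMN2, which destabilises microtubules in outgrowing neurites, was at 3666 CPM in the dox library, against 9.76 CPM in the control. Its relative STMN4 was at 705 CPM in the dox library, against 0.663 CPM in the control. TUBA1A, the main alpha-tubulin of young neurons, was at 4191 CPM in the dox library, against 456 CPM in the control, and MAP1B, a microtubule-associated protein of extending axons, at 3765 CPM in the dox library, against 179 CPM in the control. The control was not empty of such transcripts. DPYSL3, which acts in growth cone collapse, was at 3558 CPM in the dox library, against 652 CPM in the control, and TUBA1A on day 0 was at 119 CPM, below the day 11 control. MAPT, the tau protein of axons, was at 1040.2 CPM with doxycycline and 2.89 CPM without. DCX, a marker of newly made and migrating neurons, was at 3337 CPM with doxycycline and 13.2 CPM without.

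Genes of synaptic vesicles and their release were also higher. Of 32 members at the level used, 27 were at least 4-fold higher and 0 were lower, beside 11.5% and 9.85% of all genes. The median log2 ratio was 3.64. SYT4, a synaptotagmin of vesicles and dense-core granules, had the highest ratio of the 12655 genes, at 1123 CPM in the dox library, against 0.903 CPM in the control, a log2 ratio of 9.21. SNAP25, a SNARE protein of the presynaptic membrane, was at 228 CPM in the dox library, against 0.452 CPM in the control, and CPLX2, a complexin that holds SNARE complexes ready, at 269 CPM in the dox library, against 0.512 CPM in the control. SYT1, the calcium sensor of fast release, was present in the control as well, at 489.8 CPM with doxycycline and 54.5 CPM without. SV2A, a vesicle glycoprotein, was at 517 CPM in the dox library, against 99.9 CPM in the control. Genes of synaptic adhesion and of the postsynaptic scaffold were more mixed. In that list 13 of 27 were at least 4-fold higher, beside 11.5% of all genes, 14 differed by less, and the median was 1.82. L1CAM, an adhesion molecule of axon bundles, was at 881 CPM in the dox library, against 5.63 CPM in the control. CNTN1, an axonal contactin, was at 562 CPM in the dox library, against 7.20 CPM in the control, and NCAM1 at 968 CPM in the dox library, against 22.6 CPM in the control. CNTNAP2, a neurexin relative of axons, was high in both libraries, at 459 CPM with doxycycline and 381 CPM without.

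Genes of both glutamate and acetylcholine transmission were higher in the dox library. Among glutamatergic genes, 13 of 19 were at least 4-fold higher (median log2 ratio 2.84), beside 11.5% of all genes. SLC17A6, the vesicular glutamate transporter VGLUT2, was at 275 CPM in the dox library, against 0.392 CPM in the control, and was nearly silent on day 0 (0.304 CPM). The AMPA receptor subunit GRIA2 was at 134 CPM with doxycycline and 0.572 CPM without. Another subunit, GRIA4, was at 131 CPM with doxycycline and 2.68 CPM without. Of 23 cholinergic and monoaminergic genes, 11 reached the level and 7 of these were at least 4-fold higher, beside 11.5% of all genes. Their median was 4.27, and the list median was 1.03 with no filter on low values. SLC5A7, which takes choline back up into cholinergic terminals, was at 312 CPM in the dox library, against 0.151 CPM in the control, or 10294 reads against 5. SLC18A3, the vesicular acetylcholine transporter, was at 64 CPM in the dox library, against 0.0903 CPM in the control, and ACHE, which breaks acetylcholine down, at 188 CPM in the dox library, against 2.38 CPM in the control. CHAT, which makes acetylcholine and was named after its value was seen, was at 18.9 CPM in the dox library, against 0.0301 CPM in the control. Per kb of exon, SLC5A7 had 60.4 CPM per kb and SLC17A6 56.1 CPM per kb in the dox library. The nicotinic receptor subunits CHRNA4, CHRNB2 and CHRNA7 were also at least 4-fold higher.

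GABAergic and glycinergic genes went both ways, with 8 of 15 at least 4-fold higher, 3 lower and 4 under 4-fold. The shares of all genes were 11.5% higher and 9.85% lower. GABRA3, a GABA receptor subunit, was at 167 CPM with doxycycline and 7.53 CPM without. The glycine receptor gene GLRA2 was at 84.6 CPM with doxycycline and 2.14 CPM without. The lower members were GAD1, DLX5 and DLX6. GAD1, which makes GABA, was at 0.636 CPM in the dox library, against 13.6 CPM in the control. DLX6, a homeodomain factor of GABAergic forebrain neurons, was at 0.0303 CPM in the dox library, against 17.2 CPM in the control. DLX5 had 0 counts in the dox library, against 48.3 CPM in the control, at least 532-fold lower through a limit of 3 counts. DLX5 and DLX6 also serve the placodes and other ectoderm at the border of the neural plate, as do DLX3 and TFAP2A. DLX3 was at 0.0303 CPM with doxycycline and 20.8 CPM without. TFAP2A was at 1.00 CPM with doxycycline and 22.4 CPM without.

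Transcription factors and receptors of sensory, autonomic and cranial neurons were higher in the dox library. Of 15 members at the level, 13 were at least 4-fold higher and 0 lower, beside 11.5% and 9.85% of all genes. The median log2 ratio was 4.42, and 2.63 with no filter on low values. ISL1, a LIM factor of motor and sensory neurons, was at 479 CPM in the dox library, against 3.25 CPM in the control. RET, the GDNF family receptor, was at 314 CPM with doxycycline and 9.03 CPM without. ISL1 and RET were both under 10 CPM without doxycycline. P2RX3, an ATP-gated channel of sensory endings, was at 360.4 CPM with doxycycline and 2.32 CPM without. NGFR, the low-affinity neurotrophin receptor, was at 219 CPM with doxycycline and 36.8 CPM without. Another gene overlaps 27.1% of its exon bases. Of the 30 genes listed, the others stayed under 10 CPM in both libraries.

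Of 44 general neuronal transcription factors, 25 reached the level. Among these, 18 were at least 4-fold higher and 1 was lower, beside 11.5% and 9.85% of all genes. The median was 4.66, and 1.86 with no filter on low values. ONECUT2 and ONECUT3 are homeodomain factors of motor neurons and other early neurons. ONECUT3 was at 600.1 CPM with doxycycline and 0.753 CPM without. ONECUT2 was at 617 CPM with doxycycline and 1.11 CPM without. EBF3, a factor of neuronal differentiation downstream of proneural genes, was at 473 CPM in the dox library, against 1.36 CPM in the control. SIM1, a factor known from the hypothalamus and from spinal interneurons, was at 324 CPM in the dox library, against 0.602 CPM in the control. Each of these was nearly silent in the control. SOX11, which acts in young neurons, was under 4-fold, at 523 CPM with doxycycline and 278 CPM without. Its relative SOX4 was under 4-fold too, at 699 CPM with doxycycline and 193 CPM without. LHX5, a LIM factor of the early forebrain, was the lower one, at 6.06 CPM in the dox library, against 73.6 CPM in the control. Factors that mark cortical glutamatergic neurons were near 0 in the dox library, with TBR1 at 0.333 CPM and NEUROD6 at 0 counts. TBR1 and NEUROD6 were named after their values were seen.

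Granins and neuropeptides had a median of 4.68, with 14 of 15 members at least 4-fold higher, beside 11.5% of all genes. With no filter on low values the median was 1.92. CHGA, a granin of dense-core vesicles, was at 1221 CPM in the dox library, against 7.05 CPM in the control, and CHGB at 257 CPM in the dox library, against 3.40 CPM in the control. PCSK1N, an inhibitor of the prohormone convertase, was at 261 CPM in the dox library, against 1.57 CPM in the control. TAC1, the precursor of substance P, was at 134 CPM in the dox library, against 0.482 CPM in the control, whereas TAC3, the precursor of neurokinin B, was at 0.182 CPM in the dox library, against 16.5 CPM in the control, and was the lower member. Of 31 genes listed, 16 stayed under 10 CPM in both libraries. All granins and processing enzymes listed reached it.

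Voltage-gated ion channel genes numbered 26 higher and 1 lower among 35 members, beside 11.5% and 9.85% of all genes. The other 8 were under 4-fold, and the median log2 ratio was 3.25. SCN3A, a sodium channel of the developing brain, was at 238 CPM with doxycycline and 1.29 CPM without. The auxiliary sodium channel subunit SCN3B was at 353 CPM with doxycycline and 0.783 CPM without. KCNQ3, a potassium channel subunit, was at 149 CPM with doxycycline and 1.26 CPM without. CACNA2D1, an auxiliary calcium channel subunit, was at 299 CPM in the dox library, against 16 CPM in the control. CACNA1G, a T-type calcium channel, was the lower member, at 1.76 CPM in the dox library, against 13.9 CPM in the control.

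Axon guidance genes were divided between the cultures. Among 43 members, 15 were at least 4-fold higher and 7 lower, beside 11.5% and 9.85% of all genes. The median was 1.30. PLXNA4, a semaphorin receptor, was at 754 CPM in the dox library, against 5.06 CPM in the control, and the ligand SEMA3C at 644 CPM in the dox library, against 13 CPM in the control. The lower members were UNC5B, NRP2, SEMA6A, EPHA4, EPHB3, EFNA1 and EFNB1. EFNB1, an ephrin of progenitors, was at 18.7 CPM in the dox library, against 237 CPM in the control, and SEMA6A at 65.5 CPM in the dox library, against 395 CPM in the control. ROBO1, a Slit receptor, was high in both, at 798 CPM in the dox library and 324 CPM in the control.

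Of 25 RNA-binding and splicing genes, 11 were at least 4-fold higher and 3 lower, beside 11.5% and 9.85% of all genes. The other 11 were under 4-fold, and the share of lower members was near that of all genes. The neuronal Hu proteins stabilise messages. ELAVL4 was at 312 CPM with doxycycline and 0.422 CPM without. ELAVL3 was at 436 CPM with doxycycline and 1.93 CPM without. CELF3, a brain splicing regulator, was at 528 CPM in the dox library, against 2.05 CPM in the control. The lower members were PTBP1, ESRP1 and ESRP2. PTBP1, which represses neuronal exons in non-neuronal cells, was at 51.6 CPM in the dox library, against 344 CPM in the control, a log2 ratio of -2.71. The epithelial splicing factor ESRP1 was at 0.454 CPM with doxycycline and 84.1 CPM without. ESRP2 was at 0.273 CPM with doxycycline and 19.8 CPM without. In the BAF chromatin remodelling complex, which exchanges subunits as progenitors become neurons, 3 of 15 members were at least 4-fold higher, beside 11.5% of all genes, and the other 12 were under 4-fold. ACTL6B, a subunit known from neurons, was at 87.5 CPM with doxycycline and 0.693 CPM without. DPF1, likewise known from neurons, was at 85.6 CPM with doxycycline and 4.85 CPM without. The ATPase SMARCA2 was at 66.6 CPM with doxycycline and 2.98 CPM without. The median of the list was 0.45. The progenitor subunit ACTL6A, named after its value was seen, was at 32.5 CPM in the dox library, against 67.1 CPM in the control.

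**Figure D3:**
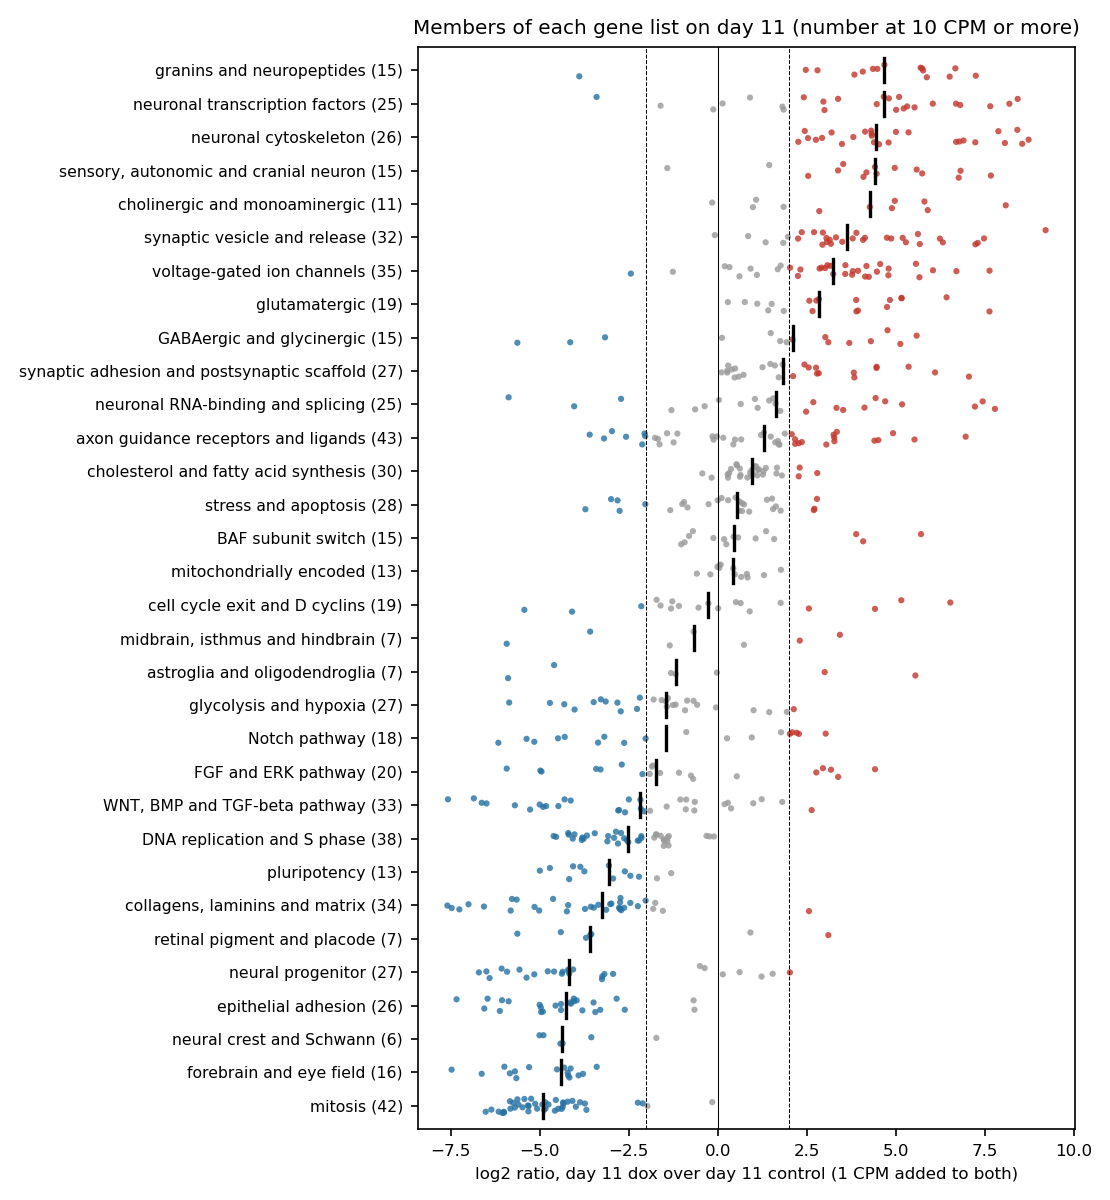
Log2 ratio of day 11 dox over day 11 control for each member at 10 CPM or more of the gene lists with at least 5 such members, ordered by list median (black bars). Dashed lines mark 4-fold; red points are higher and blue points lower. The medians run between 4.68 for granins and -4.90 for mitosis, and the order of neighbouring lists changes with the scaling and the CPM added.

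On the control side, the genes highest relative to the dox library were surface, matrix and forebrain genes. GPC3, a glypican of the cell surface, had the lowest log2 ratio of the genes compared, -7.69, at 6.97 CPM in the dox library, against 1645 CPM in the control. HAPLN1, which links hyaluronan to proteoglycans, was at 0.454 CPM in the dox library, against 298 CPM in the control. FZD5, a WNT receptor of the early eye and forebrain, was at 3.00 CPM in the dox library, against 761 CPM in the control, and FZD2 at 0.424 CPM in the dox library, against 163 CPM in the control. The basement membrane collagen COL4A6 was at 0.818 CPM with doxycycline and 321 CPM without. COL2A1, a collagen of cartilage and of early epithelia, was at 1.09 CPM with doxycycline and 401 CPM without. Day 0 levels were lower than in the day 11 control, with HAPLN1 at 2.13 CPM, COL2A1 at 22.3 CPM and GPC3 at 143 CPM on day 0.

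Of 30 forebrain and eye field genes, 16 reached the level used. All 16 were at least 4-fold lower with doxycycline, beside 9.85% of all genes, at log2 ratios of -7.47 to -3.40 (median -4.41). The whole list summed to 42.7 CPM in the dox library and 2044 CPM in the control. Most of the 16 thus reached the level only through the control, which largely set their direction. With no filter on low values the median was -3.59. Set against the shared day 0 library, the list's median was -0.46 in the dox library and 4.15 in the control. SIX3, a homeodomain factor of the anterior neural plate, was at 0.394 CPM in the dox library, against 246 CPM in the control. OTX2, which marks forebrain and midbrain, was at 1.94 CPM with doxycycline and 147 CPM without, with 29.9 CPM on day 0. FEZF1, a zinc finger factor of the forebrain, was at 9.60 CPM with doxycycline and 241 CPM without. Each of these factors was thus at 9.60 CPM or less in the dox library. SFRP1, a secreted WNT antagonist, was at 12 CPM with doxycycline and 672 CPM without, and was already at 777 CPM on day 0. Another gene overlaps 23.4% of the exon bases of FEZF1.

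Neural progenitor genes were lower in 20 of 27 cases and higher in 1 (median -4.18), beside 9.85% and 11.5% of all genes. DLK1, a non-canonical Notch ligand, was at 13.5 CPM in the dox library, against 1307 CPM in the control. GLI3, a transcription factor of Hedgehog signalling, was at 0.788 CPM in the dox library, against 185 CPM in the control, and HMGA2, a chromatin protein of young progenitors, at 3.64 CPM in the dox library, against 392 CPM in the control. NES, the intermediate filament nestin, did not go with them and was at 493 CPM in the dox library and 209 CPM in the control. HES4, the higher member, was at 62.7 CPM in the dox library, against 14.6 CPM in the control. Midbrain, isthmus and hindbrain genes reached the level in 7 of 26 cases. Of these 2 were higher and 2 lower, beside 11.5% and 9.85% of all genes. Their median of -0.67 changes sign when mitochondrial genes are left out of the scaling. The Iroquois factor IRX5 was at 38.4 CPM with doxycycline and 2.65 CPM without. IRX3 was at 44.1 CPM with doxycycline and 8.13 CPM without. FGF8, a signal of the isthmus and of the anterior neural ridge, was at 0.273 CPM with doxycycline and 76.3 CPM without. PAX8 had 0 counts with doxycycline and 11 CPM without. The HOX genes listed, which mark hindbrain and trunk, stayed under 1 CPM in both.

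**Figure D4:**
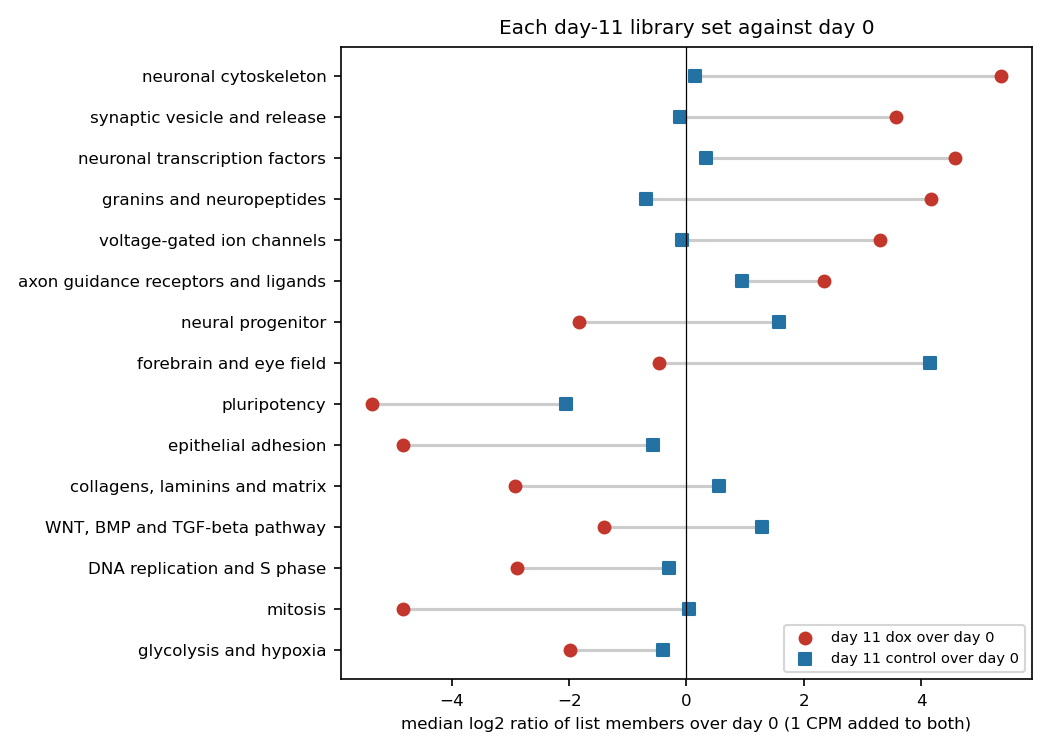
Median log2 ratio over the day 0 library of selected gene lists, with day 11 dox as red circles and day 11 control as blue squares; both share the same day 0 library. Forebrain and eye field genes stand at -0.46 in the dox library and 4.15 in the control, while the neuronal cytoskeleton stands at 5.36 and 0.14.

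Stem cell and epithelial genes were lower with doxycycline, and stem cell genes were lower in the control than on day 0 as well. Of 13 pluripotency genes at the level, 11 were at least 4-fold lower (median -3.05), beside 9.85% of all genes. Their medians over day 0 were -5.36 in the dox library and -2.06 in the control. DPPA4 was at 4.27 CPM in the dox library, against 167 CPM in the control, and L1TD1 at 4.42 CPM in the dox library, against 141 CPM in the control. LIN28A, an RNA-binding protein that blocks let-7 microRNAs, was at 155 CPM in the dox library, against 1196 CPM in the control, with 1197 CPM on day 0. POU5F1, a core stem cell factor with near-identical pseudogenes that may share its reads, was at 5.54 CPM in the dox library, against 38.9 CPM in the control, with a day 0 level of 1000.4 CPM. NANOG no longer separated the day 11 libraries, at 0.121 CPM with doxycycline and 0.181 CPM without. Epithelial adhesion genes were lower in 24 of 26 cases (median -4.27), beside 9.85% of all genes. CDH1, the cadherin of epithelia and stem cells, was at 0.576 CPM in the dox library, against 253 CPM in the control, with 267 CPM on day 0. The control thus held CDH1 near its day 0 level. The keratin KRT8, which has many processed copies, was at 3.82 CPM with doxycycline and 319 CPM without. KRT19 was at 0.818 CPM with doxycycline and 169.7 CPM without. The tight junction gene CLDN6 was at 14.6 CPM with doxycycline and 270.2 CPM without. CDH2, the neural cadherin, was near equal, at 262 CPM in the dox library and 237 CPM in the control, and was named after its value was seen.

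Collagens, laminins and other matrix genes were lower in 30 of 34 cases, beside 9.85% of all genes, with a median of -3.24. LAMC1, a laminin chain of most basement membranes, was at 36.4 CPM in the dox library, against 327 CPM in the control, and FBN2, a microfibril protein, at 2.21 CPM in the dox library, against 489 CPM in the control. COL6A1 was the higher member, at 389 CPM in the dox library, against 64.9 CPM in the control, while its partner chain COL6A2, named after its value was seen, was at 8.97 CPM in the dox library, against 46.1 CPM in the control.

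Few genes of the other lineages were found. Among all genes, 11.5% were at least 4-fold higher and 9.85% lower, the shares to set beside each count here. With 7 or fewer members at the level in each list, single calls say little of a list. Of 20 neural crest and Schwann genes, 6 reached the level and 5 of them were at least 4-fold lower with doxycycline, among them MSX2, at 0.182 CPM with doxycycline and 24.2 CPM without. The list summed to 87.1 CPM in the dox library and 457 CPM in the control. CDH6, a cadherin that kidney and neural crest cells share, gave 72.9 CPM of the first and 243 CPM of the second sum. Among glial genes, SLC1A2, the glutamate transporter best known from astrocytes, was higher with doxycycline, at 173 CPM in the dox library, against 2.71 CPM in the control, and so was MBP at 46.2 CPM in the dox library, against 4.88 CPM in the control. GJA1, the gap junction protein connexin 43, was lower, at 10.8 CPM in the dox library, against 697 CPM in the control, and so was FABP7 at 1.36 CPM in the dox library, against 56 CPM in the control. Of 22 glial genes, 7 reached the level, with 2 higher and 2 lower, while AQP4 was at 3.09 CPM with doxycycline and 1.51 CPM without and OLIG2 at 1.15 CPM with doxycycline and 0.181 CPM without. The glial list summed to 486 CPM in the dox library and 1276 CPM in the control. Of 19 mesendoderm genes only CXCR4, a chemokine receptor that migrating neurons also use, reached the level, at 55.1 CPM in the dox library, against 9.52 CPM in the control, and the list summed to 60.7 CPM with doxycycline and 13.7 CPM without. The 4 muscle, endothelial and blood genes at the level, TNNT1, KDR, TEK and VWF, were all lower with doxycycline, and that list summed to 15.9 CPM in the dox library and 209.8 CPM in the control. PECAM1, which defines endothelium, had 0 counts in the dox library and 1.87 CPM in the control. Of 22 retinal pigment and placode genes, 7 reached the level, with 5 lower and 1 higher, the placode factor EYA1 at 154 CPM with doxycycline and 17 CPM without. That list summed to 415 CPM in the dox library and 308 CPM in the control. The part of any such cells in the results was not tested.

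Mitosis genes were lower with doxycycline. Of 42 members, 40 were at least 4-fold lower with doxycycline and none was higher, beside 9.85% lower among all genes, and the median log2 ratio was -4.90. The list summed to 212 CPM in the dox library and 6153 CPM in the control, with 5817 CPM on day 0. TOP2A, the topoisomerase that untangles chromosomes, was at 7.97 CPM in the dox library, against 732 CPM in the control, a 91.9-fold (95% counting interval 81.4 to 104) difference. CENPF, a kinetochore protein, was at 6.73 CPM in the dox library, against 412 CPM in the control, and TPX2, a spindle assembly factor, at 9.45 CPM in the dox library, against 243 CPM in the control. DLGAP5, a spindle protein, was at 1.09 CPM in the dox library, against 190 CPM in the control, lower by 174-fold (95% counting interval 126 to 249), and CCNB2, a mitotic cyclin, at 1.42 CPM in the dox library, against 171 CPM in the control. The members under 4-fold were CDC25B (26.2 CPM in the dox library, against 29.2 CPM in the control) and INCENP (14.9 CPM in the dox library, against 61.3 CPM in the control), named here because they were the exceptions. NUSAP1, at 3.30 CPM in the dox library, against 274 CPM in the control, has 62.2% of its exon bases overlapped by another gene.

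DNA replication genes were lower by less. In that list 24 of 38 members were at least 4-fold lower, beside 9.85% of all genes, and 14 were under 4-fold. The median was -2.53, and the sum was 657 CPM in the dox library against 3055 CPM in the control. MCM3, a subunit of the replicative helicase, was at 21.8 CPM with doxycycline and 319 CPM without. Another, MCM7, was at 57.7 CPM with doxycycline and 270.1 CPM without. RRM2, the regulated subunit of ribonucleotide reductase, was at 2.24 CPM with doxycycline and 77.9 CPM without, and 20.2% of its exon bases overlap another gene. RRM1, the constant partner of RRM2, was at 65.1 CPM with doxycycline and 175 CPM without, under 4-fold.

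Regulators of cell cycle exit went both ways, with 4 of 19 at least 4-fold higher and 3 lower (median -0.26). The shares of all genes were 11.5% higher and 9.85% lower. CDKN2D, an inhibitor of CDK4 and CDK6, was at 150.5 CPM in the dox library, against 3.25 CPM in the control, a 46.3-fold (95% counting interval 38.2 to 56.5) difference. CCND1, the cyclin of early G1, was at 1.64 CPM in the dox library, against 113 CPM in the control. CDK5, a kinase that acts in neurons after division has ended, was at 45.4 CPM with doxycycline and 6.87 CPM without. Its activator CDK5R1 was at 281 CPM with doxycycline and 12.2 CPM without. The activator CDK5R2 was at 122 CPM with doxycycline and 0.331 CPM without, so the kinase and both activators were higher together. CDKN1A, CDKN1B and CDKN1C, the CIP and KIP inhibitors, were all under 4-fold and were named after their values were seen. CDKN1C was at 101 CPM with doxycycline and 28.8 CPM without. CDKN1A was at 7.54 CPM with doxycycline and 25 CPM without, so these inhibitors did not share a direction.

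Promoters of genes for mitosis and replication often carry known control elements. The 3 members of the mitosis and S phase lists with the lowest ratios whose promoters held such an element, outside regions not printed here, are shown. Each line gives 300 bases, 250 before and 50 after the RefSeq start, 5′ to 3′ on the gene's strand (GRCh38.p14), with the CCAAT box and the CHR element TTTGAA in capitals in either orientation (ATTGG and TTCAAA on the other strand). DLGAP5 lies at chr14:55191536-55191835, minus strand, TOP2A at chr17:40417847-40418146, minus strand and CCNB2 at chr15:59104896-59105195, plus strand.
DLGAP5: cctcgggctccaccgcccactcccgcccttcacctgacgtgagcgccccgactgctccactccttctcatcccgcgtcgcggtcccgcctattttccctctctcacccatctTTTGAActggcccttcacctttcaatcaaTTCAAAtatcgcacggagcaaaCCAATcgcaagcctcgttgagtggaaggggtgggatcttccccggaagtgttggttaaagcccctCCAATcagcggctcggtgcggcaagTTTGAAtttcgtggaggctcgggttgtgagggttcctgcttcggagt
TOP2A: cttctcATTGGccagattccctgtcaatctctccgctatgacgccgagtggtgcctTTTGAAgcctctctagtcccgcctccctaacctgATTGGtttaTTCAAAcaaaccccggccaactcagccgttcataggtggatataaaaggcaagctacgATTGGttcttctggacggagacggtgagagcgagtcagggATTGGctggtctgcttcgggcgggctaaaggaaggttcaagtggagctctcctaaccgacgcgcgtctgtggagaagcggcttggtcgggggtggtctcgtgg
CCNB2: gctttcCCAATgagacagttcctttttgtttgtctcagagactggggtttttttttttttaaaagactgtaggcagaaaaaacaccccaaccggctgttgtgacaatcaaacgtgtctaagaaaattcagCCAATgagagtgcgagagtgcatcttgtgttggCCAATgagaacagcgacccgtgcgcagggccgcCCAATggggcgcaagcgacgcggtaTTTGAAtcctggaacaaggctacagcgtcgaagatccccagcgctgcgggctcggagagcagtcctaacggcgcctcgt
DLGAP5 held 2 CCAAT boxes and 3 TTTGAA, TOP2A held 4 and 2, and CCNB2 held 4 and 1. In CCNB2 the TTTGAA began 29 bases before the start and the nearest CCAAT box 54 bases before it.

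These letters were counted in all promoters that could be matched by symbol, 9174 of the 11146 protein-coding genes at the level. TTTGAA was present in 24 of 35 mitosis promoters (68.6%), in 1 of 34 S phase promoters (2.94%), in 17.0% of the promoters of all lower genes, in 7.94% of those of higher genes and in 9.40% of all 9174. In the whole table of 27305 promoters its share was 15.4%. CCAAT was present in 74.3% of mitosis and 55.9% of S phase promoters, in 43.0% of lower and 29.2% of higher genes, in 37.2% of the 9174 and in 35.7% of the whole table. An E2F element, TTTCCCGC or TTTGGCGC, was present in 18 of 34 S phase promoters (52.9%), in 2 of 35 mitosis promoters (5.71%), in 5.52% of lower and 1.77% of higher genes, in 3.75% of the 9174 and in 2.31% of the whole table. All motifs were searched on both strands. A match is a description of letters and says nothing of binding in these cells.

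On the higher side, the E-box CAGATG that NEUROG and NEUROD factors prefer was counted in the same way. It was present in 11.4% of the promoters of higher genes, 10.5% of those of lower genes, 8.97% of the 9174 and 14.8% of the whole table. The E-box CAGCTG was in 17.9% of higher and 16.1% of lower genes, in 16.2% of the 9174 and in 17.7% of the whole table. Any CANNTG, which includes both, was in 61.1% of higher and 58.6% of lower genes, in 58.7% of the 9174 and in 68.9% of the whole table. Candidates for printing were only the 15 genes of highest ratio and the list members named by rule, not all higher genes. The 3 candidates of highest ratio that held CAGATG and lie outside the regions left out are shown. The format is the same, with CAGATG or its reverse CATCTG in capitals. L1CAM lies at chrX:153875895-153876194, minus strand, PLXNA4 at chr7:132576421-132576720, minus strand and TAC1 at chr7:97731836-97732135, plus strand.
L1CAM: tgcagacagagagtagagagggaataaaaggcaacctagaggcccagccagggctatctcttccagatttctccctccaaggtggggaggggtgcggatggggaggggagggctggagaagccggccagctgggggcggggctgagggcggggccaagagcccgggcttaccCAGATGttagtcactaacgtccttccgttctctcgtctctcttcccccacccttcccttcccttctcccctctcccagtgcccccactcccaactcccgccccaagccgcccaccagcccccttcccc
PLXNA4: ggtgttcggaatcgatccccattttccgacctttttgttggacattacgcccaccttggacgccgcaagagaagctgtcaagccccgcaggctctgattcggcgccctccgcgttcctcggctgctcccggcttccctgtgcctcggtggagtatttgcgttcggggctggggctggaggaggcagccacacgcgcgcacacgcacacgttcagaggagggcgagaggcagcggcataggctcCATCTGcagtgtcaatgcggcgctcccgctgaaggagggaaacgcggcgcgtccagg
TAC1: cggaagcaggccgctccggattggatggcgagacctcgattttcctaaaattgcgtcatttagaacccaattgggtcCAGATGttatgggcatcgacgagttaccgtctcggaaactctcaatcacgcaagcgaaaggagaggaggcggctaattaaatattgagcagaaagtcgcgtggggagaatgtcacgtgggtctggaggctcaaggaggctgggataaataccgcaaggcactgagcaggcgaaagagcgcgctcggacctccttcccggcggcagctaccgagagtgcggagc
Each held 1 copy, which began 78 bases before the start in L1CAM, 7 before it in PLXNA4 and 173 before it in TAC1.

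**Figure D5:**
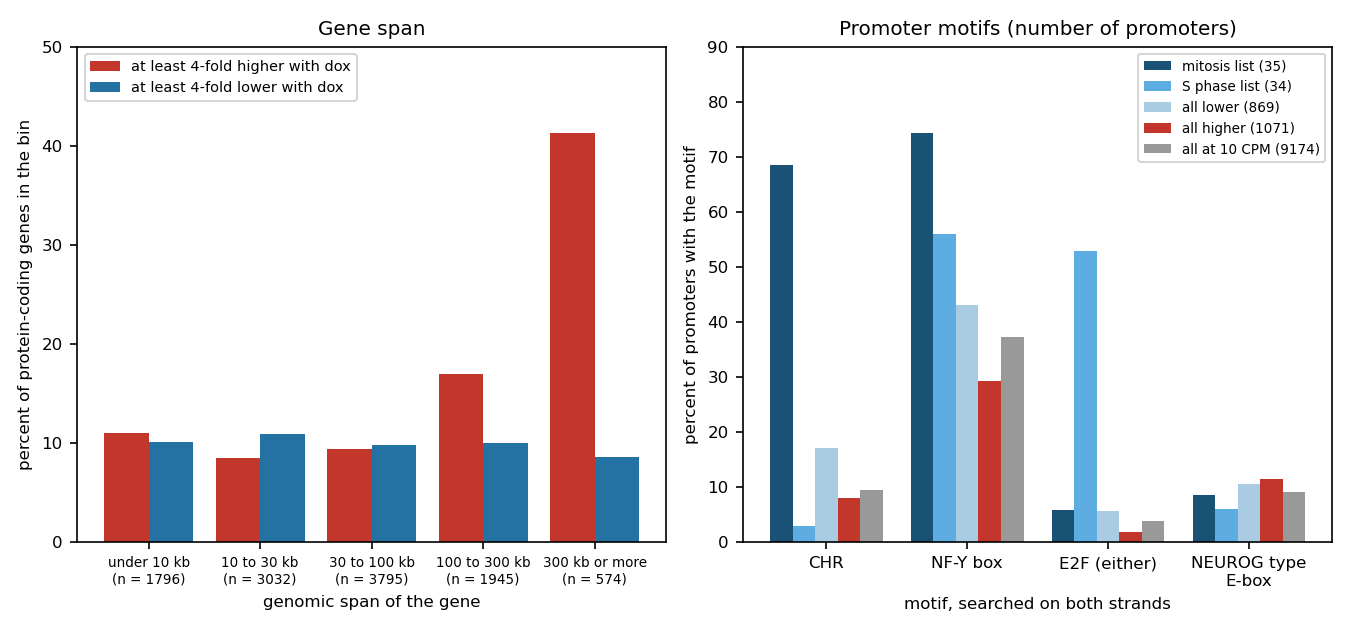
Left, percent of protein-coding genes at least 4-fold higher (red) or lower (blue) with doxycycline by genomic span. Right, percent of promoters that hold each motif in the mitosis list, the S phase list, all lower, all higher and all 9174 matched genes; the NF-Y box is the CCAAT box. Genes of 300 kb or more are higher in 41.3% of cases, and the CHR element is in 68.6% of mitosis promoters.

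Higher genes were longer in the genome. Protein-coding genes that were higher with doxycycline had a median genomic span of 65720 bases, lower genes 34180 bases and all compared genes 37160 bases. Of the 574 genes that span 300 kb or more, 237 (41.3%) were higher and 49 (8.54%) lower, with a median log2 ratio of 1.42. In the 4 bins of shorter span, 8.41% to 16.9% were higher and the medians were 0.15 to 0.35. Spliced exon length differed less, with medians of 6118 bases in higher, 4904 in lower and 5510 in all genes. Neuronal and non-neuronal genes were not separated here.

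Signalling genes went both ways. In the Notch pathway, through which differentiating neurons hold their neighbours as progenitors, 5 of 18 members were at least 4-fold higher and 9 lower. The shares of all genes were 11.5% higher and 9.85% lower. The receptor NOTCH2 was at 2.79 CPM with doxycycline and 269 CPM without. NOTCH3 was at 9.24 CPM with doxycycline and 200.1 CPM without. NOTCH1 was lower by 4-fold or more too, and RBPJ, the DNA-binding partner of all Notch receptors, was at 152 CPM with doxycycline and 127 CPM without. HES1, their effector, was at 0.182 CPM with doxycycline and 47.7 CPM without. DLL3, a divergent ligand that blocks Notch within the cell, was at 40.9 CPM in the dox library, against 4.13 CPM in the control, and HES6, which opposes HES1, at 92.2 CPM in the dox library, against 18.2 CPM in the control. The others that were higher were JAG2, HES4 and MAML3.

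In the WNT, BMP and TGF-beta pathways, 19 of 33 members were lower and 1 was higher (median -2.17), beside 9.85% and 11.5% of all genes. FSTL1, a secreted BMP antagonist, was at 23.5 CPM in the dox library, against 943 CPM in the control, and DKK3, a divergent member of the Dickkopf family, was the higher one, at 224 CPM in the dox library, against 35.1 CPM in the control. In the FGF and ERK pathway, 5 were higher and 7 lower of 20, beside 11.5% and 9.85% of all genes. The higher ones were FGF9, the ERK phosphatase DUSP4 and the intracellular FGF homologues FGF12, FGF13 and FGF14, which bind sodium channels and are not secreted. FGF13 was at 156 CPM in the dox library, against 16.4 CPM in the control, and DUSP4 at 242 CPM in the dox library, against 22.3 CPM in the control. Another gene overlaps 33.2% of the exon bases of FGF14. The receptor FGFR3 was at 1.27 CPM with doxycycline and 70.7 CPM without. FGFR1 was at 155 CPM with doxycycline and 583 CPM without, a log2 ratio of -1.91 that is under 4-fold.

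Of 27 glycolysis and hypoxia genes, 11 were at least 4-fold lower and 1 was higher (median -1.45), beside 9.85% and 11.5% of all genes. The glucose transporter SLC2A1 was at 25.3 CPM with doxycycline and 688 CPM without. SLC2A3, the transporter best known from neurons, was at 112 CPM with doxycycline and 997 CPM without. HK2, an inducible hexokinase, was at 1.06 CPM in the dox library, against 118 CPM in the control, and ENO1, the general enolase, at 297 CPM in the dox library, against 1965 CPM in the control, whereas the neuronal enolase ENO2 was at 819 CPM in the dox library, against 185 CPM in the control. SLC16A3, which exports lactate, was at 2.58 CPM in the dox library, against 69.8 CPM in the control. ENO1, GAPDH and PKM have processed copies in the genome, so their levels carry that uncertainty.

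Of 30 cholesterol and fatty acid synthesis genes, 3 (MVD, MVK and LSS) were at least 4-fold higher, a share no larger than the 11.5% of all genes. Their median log2 ratio was 0.97, against 0.159 for all genes, and 28 of 30 stood above 0, as did 7018 of all 12655. MVD, an enzyme of the mevalonate pathway, was at 315 CPM in the dox library, against 44.5 CPM in the control. None of the 13 mitochondrially encoded messages passed 4-fold (median 0.44). Among 28 stress genes, 3 were higher, TRIB3, ASNS and CHAC1, targets of the amino acid response, and 5 were lower. The shares of all genes were 11.5% higher and 9.85% lower. BCL2L11, a pro-death BCL2 relative, was at 7.88 CPM in the dox library, against 69.7 CPM in the control. ASNS, named after its value was seen, was at 208 CPM in the dox library, against 31.2 CPM in the control, and 44.6% of its exon bases overlap another gene.

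Per kb of exon, the most abundant protein-coding messages of the dox library, apart from mitochondrial and ribosomal protein genes, were TMSB10 (2564 CPM per kb), STMN2 (1552), ACTG1 (1407), TUBB2A (1346) and NEFL (1306), followed by TUBA1A, TMSB4X, MARCKSL1, GAP43 and INA. In the control they were FTL (721 CPM per kb), ACTG1 (677), TMSB10 (671), EEF2 (627) and GPC3 (607), followed by TUBB, HMGA1, HSP90AB1, GAPDH and ACTB. GAP43, a growth cone protein, had 860.3 CPM per kb with doxycycline and 6.71 without, and HMGA1, a chromatin protein of dividing cells, 56.8 CPM per kb with doxycycline and 497 without. The tubulin, actin and thymosin genes belong to families with near-identical copies, so reads may be split between them.

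Genes whose ratio on day 11 was farthest from that on day 5, each day set against its own control, are given here. SCG2, a granin, had a ratio of -0.61 (log2) on day 5 and of 5.77 on day 11. It was at 13 CPM in the day 5 dox library and at 76.5 CPM in the day 11 dox library. ADCY2, an adenylyl cyclase of the brain, was at 19.9 CPM in the day 5 dox library and 69.8 CPM in the day 5 control, and at 72.3 CPM and 1.02 CPM in the day 11 libraries. PDZD4 was at 162 CPM in the day 5 dox library and 332 CPM in the day 5 control, and at 375 CPM and 10 CPM on day 11. SERPINB9, an inhibitor of granzyme B, had 194 CPM in the day 5 control and 3.22 CPM in the day 11 control. ESRG, a long RNA of stem cells, was at 1297 CPM in the day 5 control and 17.1 CPM in the day 11 control, and at 2.80 and 2.30 CPM in the dox libraries of those days. GREB1L was at 453 CPM in the dox library and 0.686 CPM in the control on day 5, and at 237 CPM and 329.6 CPM on day 11, so that by then its level in the control was above that in the dox library. Mitochondrial messages took 12.7% of the reads in the day 5 control, above the other libraries, and the part of that library in these differences was not tested. Differences between the days were not tested either, as each library stands alone.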

How the data were processed

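Total RNA of 1 well per group was sequenced as 50-base single-end reads from libraries that do not mark strand, per the labels' protocols. The count table deposited by the authors holds whole reads per gene, and the submitters' processing notes name Subread, featureCounts 1.5.0 and the GRCh38 build, with no settings. The authors' deposited normalized table holds linear values of unit signal (limma). In it each count had been multiplied by 1 of 6 factors of 0.839 to 1.194 that are the same 6 in both libraries and change from gene to gene, so it served only as an alternative. The aligner's settings and the annotation release are not given in the sources used here. Positions and overlaps came from GENCODE 29, and promoters from RefSeq (GRCh38.p14).

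Counts were scaled with TMM over the 5 libraries of the line (edgeR 4.0.16, R 4.3.3), and ratios were taken after adding 1 CPM (Python 3.11.15). Genes at 10 CPM or more in either day-11 library were compared at 4-fold, with exact 95% counting intervals. Groups hold 1 library each, so no test was run and no p-value is given. Alternatives were library totals, DESeq2 1.42.0 size factors, TMM over 2 libraries, the authors' values, other added CPM, level minima, thresholds and gene types. The counting of calls was tested on simulated data. The members and the 34 gene lists were chosen with earlier results of these data known. Genes were named as the first markers, the 15 highest and 15 lowest ratios, the most abundant and most different members of each list with those that went against its median, the 10 most abundant genes per kb and the 6 genes each way that differed most between days. Markers of cell types and the members that make up a small count are named too, and other genes with a value are marked as named after it was seen. Altogether 16 per-sample columns of the FGF2 tables, which repeat counts, were not used. Some genes that the rule names are not reported here.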

Additional observations from a re-analysis of the deposited data

Results flagged for a closer look

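A group of genes was higher with doxycycline on day 5 and lower with it on day 11, each by at least 4-fold against the control of the same day. Among genes at 10 CPM or more in at least 1 library of each day, 13 did so and 4 did the reverse. The number of genes that met this level on both days was not counted. With 1 library per group and day, these differences were not tested. HAPLN1, which links hyaluronan to proteoglycans, was at 12.4 CPM in the day 5 dox library and 0.779 CPM in the day 5 control, and at 0.454 CPM and 298 CPM on day 11. Its log2 ratio was thus -10.60 on the day 11 minus day 5 scale. DLK1, the non-canonical Notch ligand, was at 31.2 CPM in the day 5 dox library and 2.37 CPM in the day 5 control, and at 13.5 CPM and 1307 CPM on day 11, a difference of -9.75. FEZF1, of the forebrain, was at 23.9 CPM in the day 5 dox library and 0.405 CPM in the day 5 control, and at 9.60 CPM and 241 CPM on day 11, a difference of -8.66. PRTG, a receptor of early neural epithelium, was at 58.1 CPM in the day 5 dox library and 6.95 CPM in the day 5 control, and at 31.3 CPM and 1055 CPM on day 11, a difference of -7.93.

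The same order was seen in 5 list members of smaller difference. LHX2, a forebrain LIM factor, differed by -7.22 between the days, and PAX3, of the dorsal neural tube and neural crest, by -6.57. LHX5 differed by -5.49, the Notch-modifying enzyme MFNG by -5.48 and the ephrin receptor EPHA4 by -4.57. LHX2 was at 8.29 CPM in the day 5 dox library and 0.0935 CPM in the day 5 control, and at 2.30 CPM and 56.8 CPM on day 11. Members under 10 CPM in both day 5 libraries, such as LHX2, are outside the count given above. In LHX2, as in HAPLN1, DLK1, FEZF1 and PRTG, the dox level was lower on day 11 than on day 5 while the control level was higher.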

How the results depend on the processing

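No paired analysis was possible because each day-11 group holds 1 library. The counts of 1457 genes higher and 1247 lower stayed within 1.5 times under the other scalings, under the authors' values and without mitochondrial genes, with 1209 higher and 1631 lower from the authors' values. With 5 CPM added in place of 1 CPM, 771 genes were lower. Among genes at 50 CPM or more, 924 were higher and 531 lower. At 2-fold, 3115 were higher and 2681 lower, and at 8-fold 765 and 719. Of 373 recomputed list medians 196 moved by less than the median counting error of their members, 172 moved by more without a change of sign, and 5 changed sign. The midbrain list, at -0.67, came to 0.0335 without mitochondrial genes. The retinal pigment and placode list, at -3.58, came to 2.01 at 50 CPM or more. The cell cycle exit list, at -0.26, came to 0.0136 at 1 CPM or more, with no filter, and at 50 CPM or more. Those alternatives change which members are compared or their scale, and the cause was not tested further. Some medians kept their sign but shrank with no filter on low values. The cholinergic list went from 4.27 to 1.03, neuronal transcription factors from 4.66 to 1.86 and granins from 4.68 to 1.92. The sensory list went from 4.42 to 2.63 and the neural crest list from -4.38 to -1.28. Medians at the level thus describe the members that reached it and not whole lists. Of 635 recomputed log2 ratios of named genes 492 moved by less than their counting error and 143 by more, and none of those at 4-fold or more changed sign. The mitochondrial list without mitochondrial genes, EGFP and ESRG among protein-coding genes and ESRG at 50 CPM or more give no value. With 1 culture a side, variation between cultures could not be measured, and levels of a few counts carry wide counting error.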

Other observations

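Other gene classes also differed between the cultures. Of the 1457 genes higher with doxycycline, 52 were long non-coding RNAs (3.57%) and 26 pseudogenes (1.78%), and of the 1247 lower genes 31 were long non-coding RNAs (2.49%) and 90 pseudogenes (7.22%). Among all 12655 genes the shares were 2.19% and 9.47%. The median GC content of the matched promoters was 67.7% for higher genes, 65.0% for lower genes and 65.7% for all 9174.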
